A study of Mus musculus with 18 samples.

Results

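The aryl hydrocarbon receptor genes described here are 8 of the 30583 genes in the count table: the receptor Ahr, its partner Arnt, the repressor Ahrr, and the targets Tiparp, Cyp1a1, Cyp1b1, Nqo1 and Aldh3a1. They were chosen by name, with earlier results on these libraries known. Among those results were the low Cyp1a1 values at 10 min, 6 h, 24 h and 72 h after coronary ligation, so Cyp1a1 is described with no test. All 8 genes passed the filter on low counts. The data are bulk RNA-seq of mouse heart muscle, from 18 male C57BL/6JR mice aged 12 weeks in 6 groups of 3. In 5 groups the left anterior descending coronary artery was tied under pentobarbital anaesthesia, and tissue was taken after 10 min or after 1, 6, 24 or 72 hours (h). The labelled pentobarbital dose rises from 50 mg/kg in 10 min replicate 1 to 63 mg/kg in 72 h replicate 3. No dose is labelled for sham. As labelled, dose and time cannot be told apart, and the dose was not used in any fit. The sham group had the same surgery with the suture passed and left untied, and it is the common control of every comparison with sham. The time between sham surgery and sampling is given only as 0 h. RNA came from the infarcted part of the left ventricle. The labels also call the cells cardiomyocytes, but no separation of cells is described.

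The aryl hydrocarbon receptor is a transcription factor held in the cytoplasm by chaperones. When it binds a ligand, such as a dioxin, a plant indole or a tryptophan metabolite, it enters the nucleus, pairs with Arnt and binds the xenobiotic response element, whose core is GCGTG. Cyp1a1 and Cyp1b1 are its textbook targets, and Ahrr and Tiparp are targets that in turn repress it. In the heart, Cyp1a1 is known mainly as an enzyme of the endothelium.

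The promoters of the genes that moved most are shown because the core of the receptor's element can be looked for in them. Each line is the stretch of 250 bases before the RefSeq start (GRCm38.p6), 5′ to 3′ on the gene's strand, and capitals mark GCGTG or its reverse complement CACGC. The windows are chr9:57697363-57697612, plus strand, for Cyp1a1; chr17:79715062-79715311, minus strand, for Cyp1b1; chr13:74292332-74292581, minus strand, for Ahrr; and chr3:65528197-65528446, plus strand, for Tiparp.
Cyp1a1: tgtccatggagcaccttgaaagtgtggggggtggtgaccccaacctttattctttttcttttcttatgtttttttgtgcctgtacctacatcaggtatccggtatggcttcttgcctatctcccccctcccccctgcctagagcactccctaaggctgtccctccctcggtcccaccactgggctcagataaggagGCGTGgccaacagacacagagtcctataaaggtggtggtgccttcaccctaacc
Cyp1b1: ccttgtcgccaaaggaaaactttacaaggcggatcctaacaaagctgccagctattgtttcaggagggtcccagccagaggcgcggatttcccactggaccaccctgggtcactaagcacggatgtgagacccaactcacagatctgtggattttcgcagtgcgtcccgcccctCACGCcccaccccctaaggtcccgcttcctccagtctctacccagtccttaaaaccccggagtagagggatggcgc
Ahrr: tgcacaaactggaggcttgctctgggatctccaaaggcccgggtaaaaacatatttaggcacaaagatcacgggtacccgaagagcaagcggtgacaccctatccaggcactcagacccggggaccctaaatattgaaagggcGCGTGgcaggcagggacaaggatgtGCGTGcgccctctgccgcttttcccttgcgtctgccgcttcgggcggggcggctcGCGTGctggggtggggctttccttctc
Tiparp: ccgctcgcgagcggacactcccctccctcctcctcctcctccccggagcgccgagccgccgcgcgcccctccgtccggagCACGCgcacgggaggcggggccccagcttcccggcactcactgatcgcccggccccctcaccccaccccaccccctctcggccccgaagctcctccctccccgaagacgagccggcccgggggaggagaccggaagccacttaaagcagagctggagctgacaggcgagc
Promoter entries were found for 6 of the 8 genes, all except Ahr and Aldh3a1. On either strand, Cyp1a1 has 1 match (first base 54 before the start), Cyp1b1 has 1 (76 before) and Tiparp has 1 (170 before). Ahrr has 3, at 107, 82 and 27 before the start, and 1 of these extends to TNGCGTG, which contains the core. Arnt has 1 match and Nqo1 has 0. Across all 32851 windows of this length, 28.2% hold the core and 4.1% the extended form. These shares are not matched for base composition, and the printed windows ran from 53.6% GC (Cyp1a1) to 75.2% (Tiparp). The antioxidant response element core TGACNNNGC, which NRF2 binds, has 2 matches in Arnt and none in the other 5 windows. It is found in 10.2% of all windows. A match describes letters in a window and does not show a bound site, and sequence outside the windows was not searched.

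Depth was 18199172 to 25062351 counts per library, and 16311 genes were tested. The scaling factors, from trimmed mean of M-values (TMM) normalization, ran from 0.825 to 1.43, with the highest 3 in the 72 h libraries. One library stood apart: 6 h replicate 1 had 151 CPM (counts rescaled to a common library total) summed over 3 atrial genes, against at most 3.41 in the other 17, so the values of the 8 genes and the counts at 6 h are also given without it. The cardiomyocyte label was checked against markers. Cardiomyocyte markers summed to 61390 to 67060 CPM in sham hearts, but all 9 endothelial markers (1407 to 1540 CPM), 6 fibroblast markers (679 to 723 CPM) and 6 macrophage markers (204 to 233 CPM) were also present. In bulk tissue, fewer cells of a type and less RNA per cell cannot be told apart. Time of day of sampling is not given in the labels used here. The mice are separate animals within each group, so the spread between libraries includes differences between mice.

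Positions of the 8 genes are those of GENCODE M21 on GRCm38, and all 8 are protein coding. Ahr (ENSMUSG00000019256, chromosome 12, 35497974 to 35535038, minus strand), the receptor, was lower at 24 h and 72 h. Its TMM-scaled CPM was 15.6, 15.7 and 15.5 in the 3 sham hearts. At 10 min the values were 9.71, 14.7 and 18.4, and at 1 h they were 13.4, 14.6 and 15.9. They were 11.9, 11.4 and 14.1 at 6 h, then 9.11, 10.5 and 13.7 at 24 h, then 8.11, 8.83 and 9.07 at 72 h. The sham values lay close together, the 10 min values straddled them, and every library at 6 h, 24 h and 72 h lay below every sham library. Ahr fell by 0.50 ± 0.18 (SE) on the log2 scale at 24 h (edgeR quasi-likelihood test, Benjamini-Hochberg adjusted p = 0.03046) and by 0.85 ± 0.18 at 72 h (adjusted p = 0.0003732). At 6 h the difference of -0.32 did not pass (adjusted p = 0.1855), and was -0.29 without 6 h replicate 1. The 24 h call did not hold in 5 of 6 fits that each left out 1 library: any 1 of the 3 sham libraries, 24 h replicate 1 (adjusted p = 0.1377) or 24 h replicate 2. Neither the 24 h nor the 72 h call holds when libraries are scaled by total count alone, where 72 h gave -0.26 (adjusted p = 0.2354); under that scaling the median of all genes shifts by 0.61 at 72 h, by 0.20 at 24 h and by -0.12 at 6 h, against 0.03, 0.01 and -0.01 with TMM.

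Arnt (ENSMUSG00000015522, chromosome 3, 95434388 to 95497240, plus strand), the partner that Ahr shares with the hypoxia-inducible factors, changed little. Its mean was 47.5 ± 1.01 CPM in sham (SD, n = 3) and between 45.4 and 49.8 in every group but 6 h. At 6 h the libraries were at 60.5, 61.1 and 51.5 CPM, all above the sham maximum of 48.5. The rise of 0.28 ± 0.09 (log2) at 6 h passed the test (adjusted p = 0.02059), but not when 6 h replicate 1 (0.25, adjusted p = 0.08558), 6 h replicate 2 or sham replicate 2 or 3 was left out. Scaling by total count also ended that call. At 72 h Arnt was -0.06 with TMM and 0.52 by total count, so its direction there depends on the scaling.

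Ahrr (ENSMUSG00000021575, chromosome 13, 74211118 to 74292331, minus strand), which competes with Ahr for Arnt and represses the same elements, fell at 6 h and stayed low. Sham hearts had 2.98, 3.47 and 4.26 CPM and 10 min hearts 3.05, 3.15 and 2.57. At 1 h the values were 1.35, 2.31 and 2.97, all below the lowest sham library. They were 0.60, 0.77 and 0.59 at 6 h (10 to 16 counts), 1.29, 1.06 and 0.52 at 24 h (10 to 30 counts), and 0.98, 1.10 and 1.02 at 72 h. All 9 libraries from 6 h onward lay below all 9 earlier ones. The log2 fold change was -2.45 ± 0.32 at 6 h (adjusted p = 3.794e-05), -1.88 ± 0.30 at 24 h (adjusted p = 0.0001028) and -1.79 ± 0.29 at 72 h (adjusted p = 2.379e-05). Between 1 h and 6 h it fell by 1.74 (adjusted p = 0.001155). The 1 h difference from sham, -0.70 ± 0.28, did not pass (adjusted p = 0.7594). Without 6 h replicate 1, Ahrr at 6 h was -2.39.

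Tiparp (ENSMUSG00000034640, chromosome 3, 65528410 to 65555518, plus strand), a mono-ADP-ribosyltransferase (PARP7) that modifies and restrains Ahr, went the other way at 6 h. It stood at 10.1, 11.7 and 12.7 CPM in sham and 13.0, 9.07 and 10.95 at 10 min. The 1 h libraries were at 15.2, 16.1 and 15.3, above all sham values. That difference, 0.43 ± 0.30 (log2), did not pass (edgeR adjusted p = 0.9593). The 6 h libraries reached 70.4, 38.0 and 29.7, above all 15 others and spread widely among themselves. Values of 17.1, 12.4 and 28.1 followed at 24 h and 13.3, 13.8 and 12.0 at 72 h. The rise at 6 h was 2.0 ± 0.30 (log2; adjusted p = 0.0002403), and 1.56 without 6 h replicate 1 (adjusted p = 0.0003254). From 6 h to 24 h Tiparp fell by 1.27 (adjusted p = 0.004778), which did not pass when only those 6 libraries were fitted.

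At 24 h Tiparp was 0.73 above sham and did not pass (adjusted p = 0.05984). It passed by DESeq2 (adjusted p = 0.02387) and without 24 h replicate 2 (0.97, adjusted p = 0.01535), and was 0.35 without 24 h replicate 3. Its spread moved with neutrophil markers. Their sum in the same order of libraries was 733, 260 and 96.6 CPM at 6 h, and 152, 35.1 and 652 CPM at 24 h, against 2.31 to 3.58 in sham. All 5 neutrophil markers were called higher at both times. The part of these cells in the Tiparp values was not tested.

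Cyp1a1 (ENSMUSG00000032315, chromosome 9, 57687928 to 57703824, plus strand), a P450 enzyme that oxidises polycyclic hydrocarbons and is the most used readout of receptor activity, had the widest range of the 8. Sham hearts had 139, 253 and 468 CPM and 1 h hearts 297, 105 and 145. At 10 min the values were 24.0, 35.9 and 7.93. They were 11.7, 12.2 and 12.4 at 6 h, 2.55, 0.46 and 0.26 at 24 h (59, 13 and 5 counts) and 7.57, 12.5 and 1.65 at 72 h. The sham and 1 h libraries overlapped and lay above all others, while the 10 min libraries lay below all of them and reached down into the range of 72 h. The order was therefore not one of time, because the 10 min group sat between sham and 1 h in time but not in level. Mean levels were 287 ± 167 CPM in sham and 182 ± 101 at 1 h (SD, n = 3). The sham mean was 12.7-fold that at 10 min, 1.57-fold that at 1 h, 23.7-fold that at 6 h, 264-fold that at 24 h and 39.5-fold that at 72 h. Among neighbours in that order, only 1 h and 10 min had no overlap between their libraries.

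**Figure D1:**
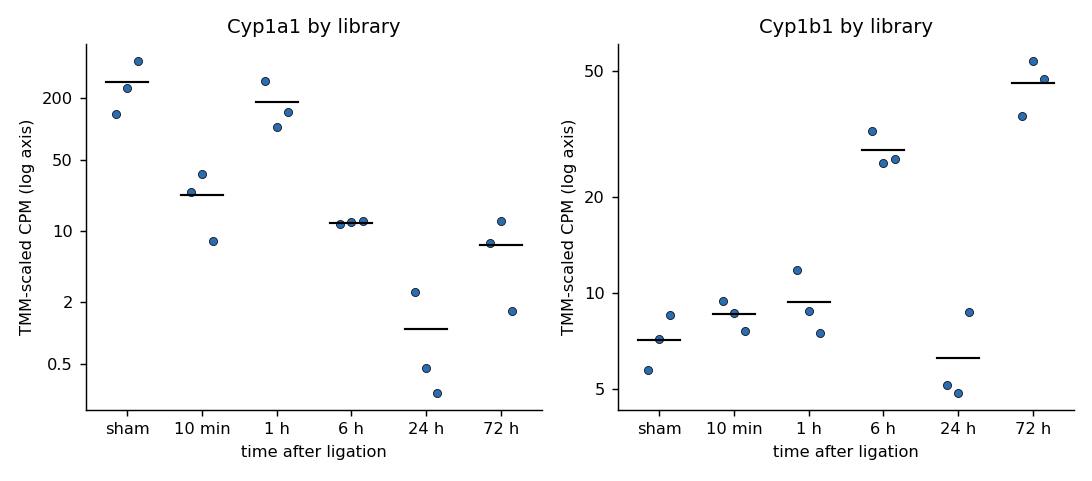
TMM-scaled CPM (log axis) of Cyp1a1 and Cyp1b1 in each of the 18 libraries (points) by group, with the group mean as a line. Cyp1a1 is high in sham and 1 h and low in the 4 other groups, whereas Cyp1b1 is high at 6 h and 72 h.

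Fitted log2 fold changes of Cyp1a1 from sham were -3.65 ± 0.75 at 10 min, -0.65 ± 0.67 at 1 h, -4.56 ± 0.80 at 6 h, -8.03 ± 1.00 at 24 h and -5.30 ± 0.82 at 72 h. The single libraries weigh on these sizes. Without sham replicate 3, the highest, they were -3.11 at 10 min and -0.10 at 1 h, and without 24 h replicate 1 the 24 h value was -9.55. Without 6 h replicate 1 the 6 h value was -4.54. In every fit with 1 library left out, the value stayed below 0. Cyp1a2, the neighbouring paralog known as a liver enzyme, had 1, 2 and 13 counts in sham, 0 to 2 at 10 min and 1 h, and 0 in all 9 later libraries, and it did not pass the count filter. Reads shared by the 2 paralogs cannot be told apart here. Liver markers summed to at most 1.33 CPM and lung markers to at most 1.85 CPM in any library.

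Markers of the endothelium, the known site of Cyp1a1 in heart, did not have the same order as Cyp1a1: their sum was 1407 to 1540 CPM in sham, 1544 to 1653 at 10 min and 1334 to 1493 at 1 h. It was highest at 6 h (1471 to 1986 CPM), then 1105 to 1363 at 24 h and 889 to 1125 at 72 h. None of the 9 was called at 10 min or 1 h (edgeR; 2 at each time had an unadjusted p under 0.05). At 6 h, 3 were called higher and 2 lower, at 24 h 1 and 4, and at 72 h 1 and 7. A pair of clock genes, picked after their values were seen, also differed at 10 min from both sham and 1 h. Arntl (Bmal1), the clock's activator, was at 13.1, 7.52 and 9.21 CPM at 10 min, against 1.42, 1.04 and 1.02 in sham and 2.66, 1.01 and 1.34 at 1 h. Per2, a clock repressor, was at 12.6, 20.9 and 13.0 CPM at 10 min, against 34.4, 44.3 and 44.4 in sham and 61.2, 52.0 and 33.7 at 1 h. At 6 h and 24 h, when Cyp1a1 was low, the clock genes differed from each other. Per2 was at 37.1 to 48.5 CPM at 6 h and 23.7 to 34.4 at 24 h, near or somewhat below its sham range. Arntl was at 3.83 to 7.27 CPM at 6 h and 1.63 to 5.41 at 24 h, above all sham libraries at both times. Both clock genes were farthest from sham at 72 h, with Arntl at 20.01 to 24.1 CPM and Per2 at 1.61 to 2.74. The part of endothelial cells or of the clock in the Cyp1a1 values was not tested.

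Cyp1b1 (ENSMUSG00000024087, chromosome 17, 79701537 to 79715061, minus strand), the other P450 of the family, which is expressed in mesenchymal and smooth muscle cells and acts on steroids and retinoids, rose at 6 h and again at 72 h. Its sham values were 5.71, 7.16 and 8.53 CPM, and its 10 min values 9.46, 8.65 and 7.59. At 1 h it was at 11.8, 8.76 and 7.46. It reached 32.4, 25.6 and 26.5 at 6 h, returned to 5.14, 4.85 and 8.71 at 24 h, and reached 36.0, 53.8 and 47.2 at 72 h. The libraries at 6 h and at 72 h were each above all those of sham, 10 min, 1 h and 24 h, and the 72 h ones were above the 6 h ones. The log2 rise over sham was 1.98 ± 0.22 at 6 h (adjusted p = 1.344e-05) and 2.67 ± 0.22 at 72 h (adjusted p = 1.778e-08). At 24 h the difference was -0.21 ± 0.23 (adjusted p = 0.4778).

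Each step between these times passed the test on its own: 1.58 from 1 h to 6 h (adjusted p = 0.0001158), -2.19 from 6 h to 24 h (adjusted p = 8.712e-06) and 2.89 from 24 h to 72 h (adjusted p = 2.5e-08). Without 6 h replicate 1 the 6 h value was 1.86. Cyp1b1 and Cyp1a1 therefore had opposite signs against sham at 6 h and 72 h. The summed fibroblast markers were far above sham at 72 h and near it at 6 h and 24 h: they came to 6424 to 8660 CPM at 72 h, 567 to 706 at 6 h, 578 to 861 at 24 h and 679 to 723 in sham. Of the 6, all were called higher at 72 h, 3 higher and 2 lower at 24 h, when Cyp1b1 was back at the sham level, and 1 higher and 2 lower at 6 h. The 6 mural cell markers (pericyte and smooth muscle genes) summed to 1045 to 1106 CPM in sham and 907 to 962 at 6 h. Their sum was 596 to 702 CPM at 24 h and 755 to 913 at 72 h. Of these, 0 were called at 6 h, and 1 was called higher and 4 lower at 72 h. The part of fibroblasts or mural cells in the Cyp1b1 values was not tested.

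Nqo1 (ENSMUSG00000003849, chromosome 8, 107388225 to 107403206, minus strand), a quinone reductase shared by the receptor and NRF2 pathways, was lower at 72 h. It stood at 41.0, 48.4 and 43.3 CPM in sham. Its values were 34.6, 39.4 and 39.6 at 10 min and 32.5, 35.8 and 39.1 at 1 h. At 6 h they were 29.3, 34.2 and 42.0, and at 24 h 46.7, 36.2 and 34.3. The 72 h values of 17.6, 21.7 and 19.8 were below all 15 others. Nqo1 fell by 1.17 ± 0.14 (log2) at 72 h against sham (adjusted p = 5.366e-07) and by 0.99 from 24 h to 72 h (adjusted p = 8.636e-06). At 6 h the difference of -0.33 did not pass (adjusted p = 0.07493), but it did without 6 h replicate 3 (-0.48, adjusted p = 0.01745) and by total-count scaling. Without 6 h replicate 1 it was -0.22. Cardiomyocyte markers were lower at 72 h, as were Nqo1 and Ahr. These markers summed to 26970 to 41070 CPM at 24 h and 15590 to 20990 at 72 h, where 8 of 8 were called lower (median log2 fold change -2.15). At 24 h, 6 of 8 were already called lower (median -0.79), while Nqo1 was -0.18 from sham and did not pass (edgeR adjusted p = 0.2996). Macrophage markers moved the other way, to 501 to 746 CPM at 24 h and 2705 to 3518 at 72 h, with 6 of 6 called higher at both times. The part of these cells in the 2 falls was not tested.

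Aldh3a1 (ENSMUSG00000019102, chromosome 11, 61207537 to 61218421, plus strand), an aldehyde dehydrogenase that the receptor induces in liver and cornea, was near the limit of detection. Its counts were 1 to 17 per library and its CPM at most 0.89. At 72 h the libraries had 0.09, 0.27 and 0.13 CPM against 0.30, 0.62 and 0.49 in sham. The difference of -1.47 ± 0.61 (log2) passed (adjusted p = 0.04047), but not in 4 of 6 fits that left out 1 library: sham replicate 2 (adjusted p = 0.1343), sham replicate 3, 72 h replicate 1 and 72 h replicate 3. It also did not pass by total-count scaling (-0.90, adjusted p = 0.2013) or by limma on either FPKM scale. At 6 h it was 0.28 without 6 h replicate 1, against -0.06 with it.

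**Figure D2:**
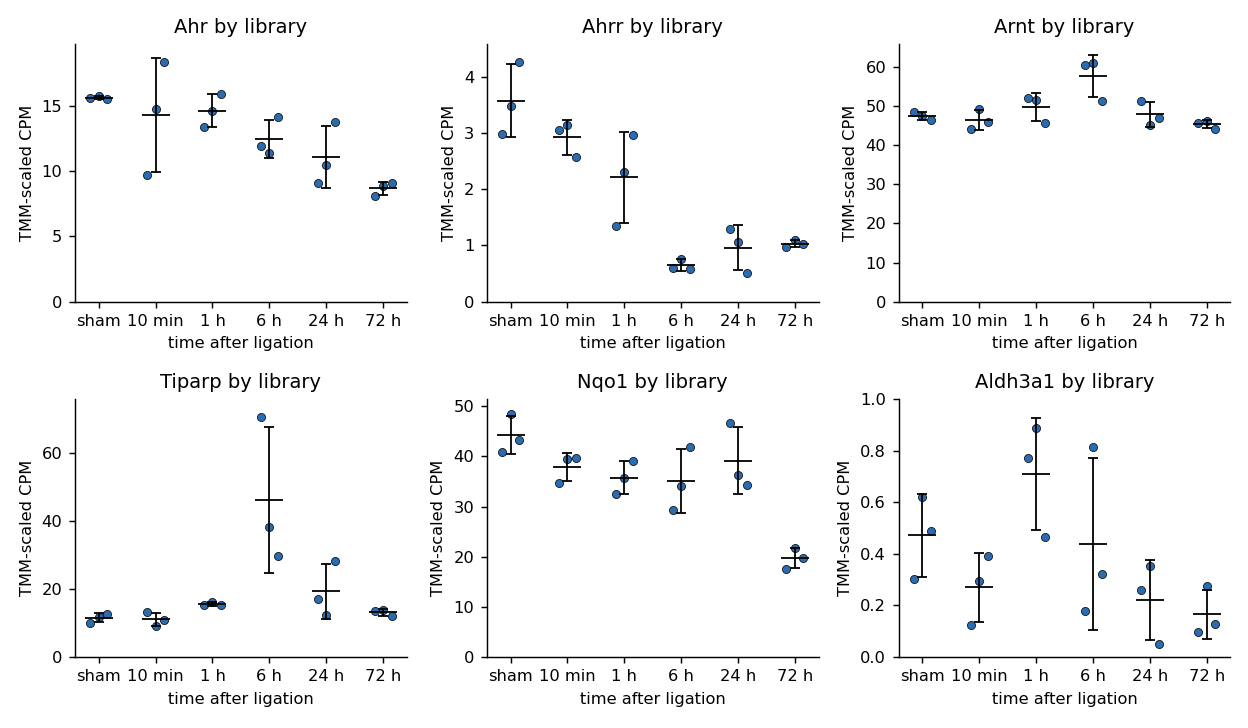
TMM-scaled CPM (linear axes from 0) of the 6 other genes in each library (points) by group, with mean and SD (bars, n = 3). Ahrr is low from 6 h on, Tiparp peaks at 6 h and Nqo1 is lowest at 72 h.

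Counted together, the 7 genes other than Cyp1a1 gave 0 calls at 10 min, where 0.0736% of all tested genes were called, and 0 at 1 h, where 0.294% were (edgeR). None had an unadjusted p under 0.05 at 10 min (7.01% of all genes), and Nqo1 and Ahrr did at 1 h (5.51%). DESeq2 also called 0 at both times. At 6 h, 4 of 7 were called (3 higher, 1 lower) beside 28.4% of all genes (16.3% higher, 12.2% lower). Without 6 h replicate 1, 3 of 7 were called (2 higher, 1 lower). At 24 h it was 2 of 7 (both lower) beside 43.8% (23.7% higher, 20.2% lower), and at 72 h 5 of 7 (1 higher, 4 lower) beside 66.4% (34.2% higher, 32.2% lower). Between neighbouring times the counts were 0 from 10 min to 1 h (0.307% of all genes; Aldh3a1 had an unadjusted p under 0.05, as did 7.43% of all), 3 from 1 h to 6 h (24.5%), 3 from 6 h to 24 h (27.8%) and 2 from 24 h to 72 h (50.5%). Scaling by total count changed the split to 2 higher and 2 lower at 6 h, 1 and 1 at 24 h, and 3 and 2 at 72 h. Under all scalings tried, Ahrr was lower at 6 h, 24 h and 72 h, Cyp1b1 higher at 6 h and 72 h, Tiparp higher at 6 h and Nqo1 lower at 72 h.

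**Figure D3:**
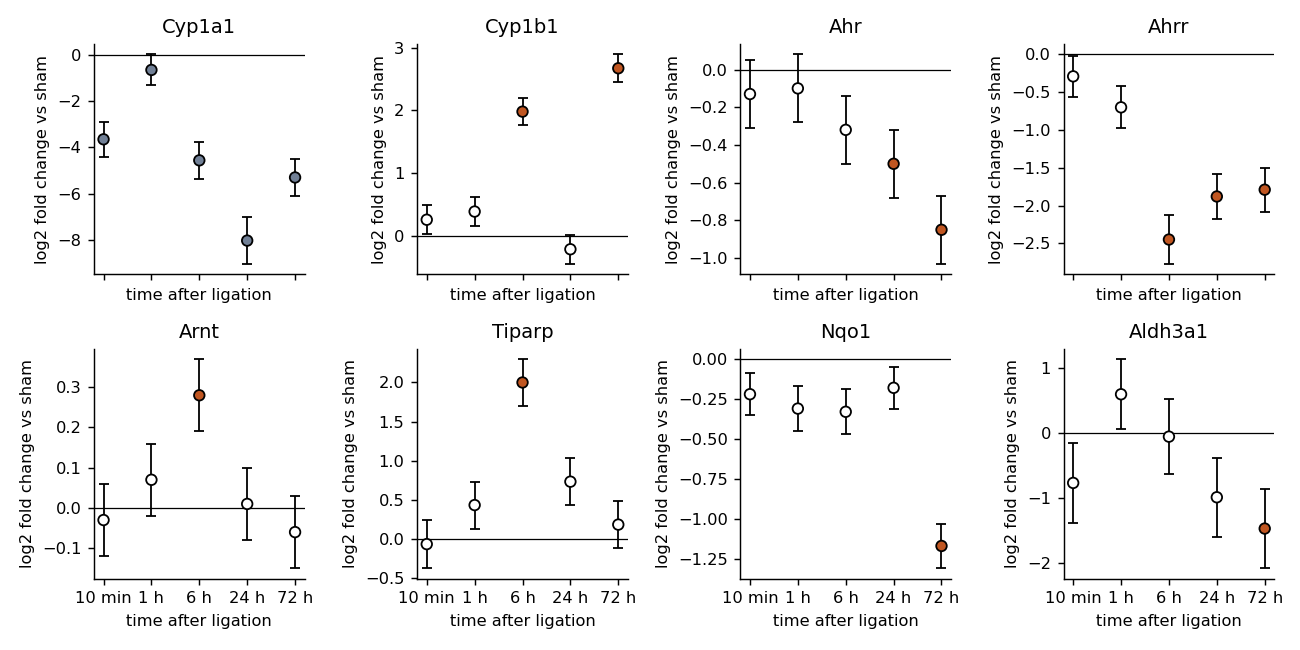
Log2 fold change against sham (edgeR, ± SE) at each time for the 8 genes, with the y axis scaled per gene. Orange points passed adjusted p under 0.05, white points did not, and grey points (Cyp1a1) were not tested. Cyp1a1 alone is far below 0 at 10 min.

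Per length, the 8 genes differed in level by over 2 orders of magnitude, and their order changed with time. In the deposited FPKM, which are per kilobase and so can be compared between genes, sham hearts had Cyp1a1 first (mean 96.3, libraries 45.8 to 161), then Nqo1 (26.4), Arnt (5.49), Tiparp (2.45), Ahr (2.35), Cyp1b1 (1.29), Ahrr (0.352) and Aldh3a1 (0.225). The sham ranges of Tiparp and Ahr overlapped, as did those of Ahrr and Aldh3a1; all other neighbours were separate. At 24 h Nqo1 led at 26.6 and Cyp1a1 was sixth at 0.398, with a range overlapping that of Aldh3a1. At 72 h Cyp1b1 was second at 12.4 (9.52 to 14.5), behind Nqo1 at 17.6 (15.3 to 19.3), and Cyp1a1 was at 3.59. The length behind the FPKM of Cyp1b1 was 5128 bases, against 5840 exonic bases in GENCODE M21, which raises its FPKM relative to that annotation. FPKM scale by total count, so they are read here between genes and not across times.

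**Figure D4:**
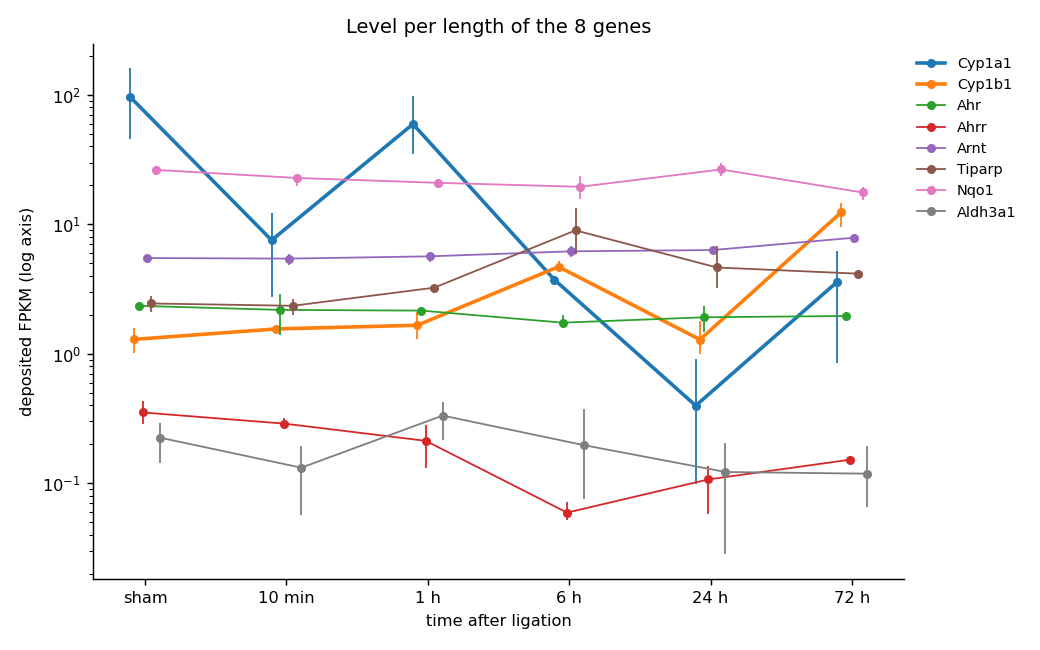
Deposited FPKM (log axis) of the 8 genes by group, as group mean (points joined by lines) and range of the 3 libraries (vertical lines). Cyp1a1 is first in sham and sixth at 24 h, and Cyp1b1 is second at 72 h.

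Genes that varied most like each member over the 18 libraries were found by Pearson r of log2 CPM. These libraries share groups, so r is a description. For Cyp1a1 they were Smarca2 and Gstt1 (r = 0.88 each), Lrrn4cl (0.87), and Mn1, Them6 and Sorcs2 (0.86 each). Their ranges were far narrower: Smarca2, a chromatin remodeller, had means of 87.0 CPM in sham, 75.2 at 10 min, 91.3 at 1 h and 55.1 at 24 h. For Tiparp the 3 most alike were the inducible heat shock genes Hspa1a (0.97) and Hspa1b (0.95), a near-identical pair whose reads may be split between them, and the phosphodiesterase Pde4b (0.95). For Cyp1b1 they were Plagl1 (0.93), Cd302 (0.92) and Mmp17 (0.91), for Ahrr Zfp512 (0.95), Ky (0.94) and Dhrs7 (0.94), and for Nqo1 Eml2 (0.94), Btf3l4 (0.93) and Ifrd2 (0.93). Spearman's rho, in the order given, was 0.71, 0.59 and 0.90 for Cyp1b1, 0.87, 0.92 and 0.86 for Ahrr, and 0.82, 0.74 and 0.79 for Nqo1. With Tiparp it was 0.92 for Hspa1a, 0.81 for Hspa1b and 0.73 for Pde4b. Between Cyp1a1 and Cyp1b1 r was -0.18, and between Cyp1a1 and Ahrr it was 0.69.

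The rest of the pathway was read from 6 lists, with 65 genes tested. None was called at 10 min or 1 h by edgeR, where 3 at 10 min and 4 at 1 h had an unadjusted p under 0.05; DESeq2 called 1 at 10 min, Cyp26b1, and 1 at 1 h. Without 6 h replicate 1, the 6 h counts given below (higher and lower) become 2 and 0 for partners, 8 and 0 for responsive genes, 7 and 0 for NRF2 targets, 0 and 0 for the tryptophan route (6 then tested), 2 and 3 for P450 genes and 0 and 4 for PARP genes. The counts below stand beside the shares of all genes called higher and lower given above, and all tested genes had a median of -0.01 at 6 h, 0.01 at 24 h and 0.03 at 72 h (log2).

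Among 11 tested chaperone and partner genes, 2 were called higher and 0 lower at 6 h, and 3 higher and 4 lower at both 24 h and 72 h. Hsp90aa1, the inducible form of the chaperone that holds Ahr in the cytoplasm, was at 107, 102 and 124 CPM in sham and 423, 215 and 217 at 6 h. That was a rise of 1.36 ± 0.26 (log2, adjusted p = 0.001394). It was 0.97 without 6 h replicate 1, and Hsp90aa1 rose by 1.26 at 24 h and 1.13 at 72 h. Hsp90ab1, the other listed form, was far higher in sham, at 1349, 1234 and 1244 CPM, and was not called at 6 h. Hif1a, which also pairs with Arnt, rose by 1.27 at 6 h (1.02 without 6 h replicate 1), 0.97 at 24 h and 1.15 at 72 h. Of the coactivators, Ncoa1 fell by 0.45 at 24 h (adjusted p = 0.01442), a call lost without sham replicate 3 or 24 h replicate 2 or 3, and Ncoa2 fell by 0.59 at 72 h (adjusted p = 0.000201). Neither call held by total-count scaling. Epas1, the endothelial-rich HIF2 subunit, fell by 0.65 at 24 h and by 1.78 at 72 h (adjusted p = 3.777e-10), from 541, 582 and 532 CPM in sham to 171, 174 and 138 at 72 h. Scaling by total count gave 4 higher and 1 lower at 24 h, and 7 higher and 1 lower at 72 h.

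Of 13 tested genes reported to respond to the receptor outside the 8, 9 were called higher and 0 lower at 6 h, 8 and 1 at 24 h, and 7 and 1 at 72 h, with median log2 fold changes of 0.75, 1.43 and 0.82. Scaling by total count gave 7 and 1 at 6 h, 9 and 1 at 24 h, and 11 and 1 at 72 h. Gprc5a, an orphan G protein-coupled receptor, rose by 3.18 ± 0.44 at 6 h (adjusted p = 6.709e-05), from 0.96, 1.09 and 0.89 CPM in sham to 13.5, 6.79 and 6.50 (2.76 without 6 h replicate 1). Slc7a5, a large neutral amino acid transporter, rose by 2.74 at 24 h (adjusted p = 1.14e-05). Ugt1a7c, a glucuronosyltransferase, rose by 4.13 at 72 h (adjusted p = 1.709e-07), from 0.61, 0.47 and 0.40 CPM to 7.98, 10.2 and 7.83; it shares exons with the other Ugt1a genes, so its reads may be divided among them. Lpcat2, a lysophospholipid acyltransferase, rose by 3.62 at 72 h (adjusted p = 2.972e-05). Xdh, xanthine dehydrogenase, fell by 1.09 at 72 h (adjusted p = 0.0001801). The median of the 13 tested genes was thus above sham at 6 h, 24 h and 72 h, where Cyp1a1 was below it. The full list held 16 genes, and Cyp1a2 was among those that did not pass the count filter. Like Cyp1a1 it was lower at these times, with 1, 2 and 13 counts in sham and 0 in every library from 6 h on. Macrophage and neutrophil markers were higher at these times too. Of 6 macrophage markers, 3 were called higher and 1 lower at 6 h (206 to 441 CPM summed, against 204 to 233 in sham), and all 6 higher at 24 h and 72 h. Of 5 neutrophil markers, all were called higher at 6 h and 24 h and 4 at 72 h (45.1 to 55.7 CPM summed). The part of these cells in the list was not tested.

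Of 12 NRF2 targets outside the 8, 8 were called higher and 0 lower at 6 h, 9 and 2 at 24 h, and 8 and 2 at 72 h, with medians of 0.72, 1.27 and 0.82. Scaling by total count gave 8 and 0, 10 and 1, and 10 and 2. Hmox1, heme oxygenase 1, rose by 4.27 at 6 h (4.16 without 6 h replicate 1), by 4.5 at 24 h (74.3, 41.3 and 243 CPM, and 3.46 in the fit with the smallest rise when 1 library was left out) and by 6.02 ± 0.57 at 72 h (adjusted p = 5.358e-07), from 4.40, 5.39 and 5.91 CPM in sham to 320, 323 and 376 at 72 h. Slc7a11, the cystine transporter, had 1 to 3 counts per sham library (0.04 to 0.15 CPM) and was called higher at all 3 times. With so few sham counts, Slc7a11 could pass the count filter only through groups where it was higher. A call of lower was therefore not possible for this gene, which is included in the counts above. Slc7a11 is described by its values. These were 16.8, 5.26 and 1.38 CPM at 6 h, 4.01, 0.92 and 28.4 at 24 h, and 1.80, 3.01 and 3.15 at 72 h, where the call was lost without any 1 sham library. Gstm1, a glutathione transferase, fell by 0.72 at 24 h and by 1.91 at 72 h (adjusted p = 3.945e-09), and Me1, malic enzyme, by 1.25. Nqo1, a member of the same regulon, fell with Gstm1 and Me1 at 72 h and not with the 8 that rose.

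Of 5 tested enzymes of the tryptophan to kynurenine route, which makes ligands of the receptor, none was called at 6 h by edgeR (0 had an unadjusted p under 0.05, against 40.0% of all genes). At 24 h 2 were called higher and 3 lower, and at 72 h 2 and 2. Scaling by total count gave 2 and 2 at 24 h, and 2 and 1 at 72 h. Kyat1, a kynurenine aminotransferase, fell by 0.92 at 24 h and by 1.75 at 72 h (adjusted p = 4.909e-07), from 31.2, 30.5 and 30.9 CPM to 10.4, 6.97 and 10.1.

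Of 15 tested genes for other P450 enzymes and their electron donors, 2 were called higher and 5 lower at 6 h, 5 and 7 at 24 h, and 6 and 6 at 72 h (9 and 4 by total count). Por, the reductase that supplies electrons to Cyp1a1 and most other microsomal P450 enzymes, rose by 0.89 ± 0.17 at 6 h (adjusted p = 0.0009561), from 70.0, 71.9 and 62.2 CPM to 155, 101 and 123 (0.72 without 6 h replicate 1). Cyp2u1 fell by 0.91 at 6 h (adjusted p = 0.01051), a call lost without sham replicate 3 or 6 h replicate 1. At 24 h Cyp27a1, a sterol hydroxylase, fell by 1.13 (adjusted p = 0.0002855) and Cyp20a1 rose by 0.51 (adjusted p = 0.0004871). Cyp51, of cholesterol synthesis, rose by 0.49 at 24 h and by 1.19 at 72 h (adjusted p = 2.539e-07). Cyp26b1, which clears retinoic acid, varied widely in sham, at 55.4, 277 and 18.3 CPM. Its log2 fold change was -3.77 at 6 h, -3.74 at 24 h and -4.74 at 72 h (adjusted p = 0.0003374). Without sham replicate 2 these were -2.11, -2.07 and -3.08, and the 6 h call did not hold in a fit of its own 6 libraries. Cyp4b1 fell by 1.99 at 72 h (adjusted p = 5.18e-10), while Cyp4v3, a fatty acid hydroxylase, rose by 1.98 (adjusted p = 4.45e-09).

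Of 9 listed genes of the PARP family, relatives of Tiparp, 0 were called higher and 4 lower at 6 h, when Tiparp rose. Parp11 fell by 0.73 (adjusted p = 0.002274) and Parp14 by 0.52 (adjusted p = 0.006128) at that time, and were -0.60 and -0.68 without 6 h replicate 1. At 24 h 1 was called higher and 0 lower, and at 72 h 6 and 1. By total count these were 0 and 5 at 6 h, 1 and 0 at 24 h, and 8 and 0 at 72 h. Zc3hav1, an antiviral RNA-binding protein, rose by 0.44 at 24 h (lost without sham replicate 1 or 24 h replicate 3) and by 1.02 at 72 h (adjusted p = 4.185e-06). Parp11 rose by 0.99 at 72 h (adjusted p = 9.423e-06), and Parp6 fell by 0.51 (adjusted p = 0.005498), which changed sign by total count. Tiparp was at 0.18 there (adjusted p = 0.609), and at 0.76 by total count, where it passed (adjusted p = 0.02117).

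**Figure D5:**
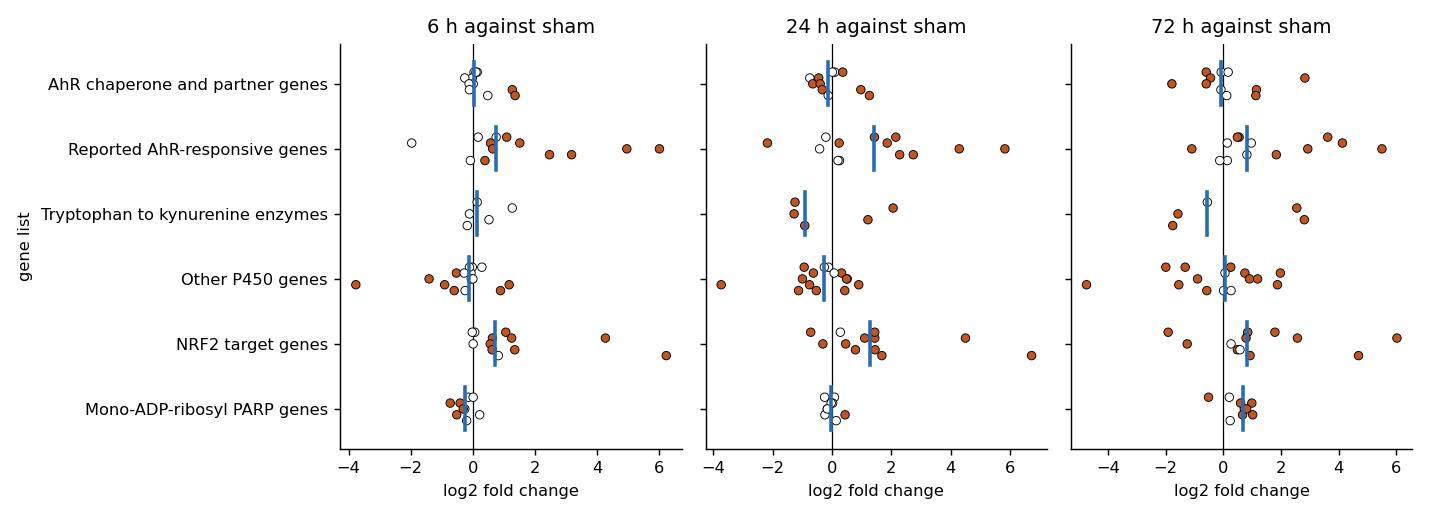
Log2 fold change against sham of each tested gene in the 6 lists at 6 h, 24 h and 72 h (points, orange where adjusted p was under 0.05, white where not) with the list median (blue bar). Responsive genes and NRF2 targets lie mostly above 0 at each time.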

How the data were processed

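Bulk mRNA of 18 mice was sequenced, 3 per group. Reads were trimmed with cutadapt 1.18, aligned with HISAT2 2.1.0 to mm10 and counted with featureCounts, per the submitters' processing notes; the annotation and strand setting are not given in the sources used here, so reads of overlapping antisense genes cannot be told apart. The authors deposited raw counts per gene and FPKM. The FPKM columns of 6 h replicates 2 and 3 hold each other's values, which leaves group means and ranges unchanged. Gene symbols and positions came from GENCODE M21 (30512 of 30583 genes matched) and promoters from RefSeq.

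From the counts, CPM were scaled by TMM and all genes were fitted with edgeR 4.0.16 (glmQLFit, robust; glmQLFTest, two-sided; filterByExpr kept 16311 genes and removed 14272) in R 4.3.3, over all 18 libraries with 1 mean per group. A gene was called at a Benjamini-Hochberg adjusted p under 0.05 over all genes tested; SE is the log2 fold change divided by the square root of F. The fit was tested on simulated data. Alternatives were other scalings and filters, DESeq2 1.42.0, limma 3.58.1 on log2(FPKM + 1) and log2(FPKM + 0.1), a replicate block, only the 6 libraries compared, and each library left out. The members and lists were chosen with earlier results of these data known. List genes are named, with 1 exception, where called with a mean of at least 50 counts, no overlap with sham, and among the 2 largest changes in each direction of that list. Hsp90ab1 and Cyp1a2 are given beside them without meeting this rule. Likeness used a prior count of 2. Lists of mural, epicardial and red blood cell markers were also read. The exception is not reported here.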

Additional observations from a re-analysis of the deposited data

Results flagged for a closer look

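Differences between neighbouring times that passed the edgeR test mark these genes for a closer look. From 1 h to 6 h, Tiparp rose by 1.56 and Cyp1b1 by 1.58 on the log2 scale, while Ahrr changed by -1.74. From 6 h to 24 h, Tiparp changed by -1.27, Arnt by -0.27 and Cyp1b1 by -2.19. From 24 h to 72 h, Cyp1b1 rose by 2.89 and Nqo1 changed by -0.99. The Arnt step did not pass in 4 of the 6 fits that left out 1 of its libraries.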

How the results depend on the processing

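Leaving out 1 library at a time gave 1 to 2 called members at 24 h (1 without any 1 of the sham replicates or 24 h replicate 1, which ends the Ahr call) and kept every other count of called members against sham within 1.5 times. Fitting only the 6 libraries compared gave 1 called member from 6 h to 24 h, against 3, and 1 other pathway gene at 10 min and 1 at 1 h, against 0; DESeq2 also gave 1 at each of these times. The cause was not tested. With Spearman's rho, 2 of the 6 genes most like Cyp1a1 were shared. Arnt at 72 h turned from -0.06 to 0.52 by total-count scaling, 0.45 by limma on log2(FPKM + 1) and 0.51 on log2(FPKM + 0.1), each of which scales by total count. Cyp1b1 at 6 h and 72 h, Ahrr at 6 h, 24 h and 72 h, Tiparp at 6 h and Nqo1 at 72 h kept their calls in all 9 other settings and in all 6 fits without a library. No pairing of mice by replicate number was detected, though a shared day or batch could be missed with 3 libraries per group. Over 45 pairs of same-numbered libraries, deviations correlated with r from -0.41 to 0.26 (median 0, with 3 pairs over 0.1). Of 18 libraries, 5 correlated best with their own number. With the replicate block, 4, 2 and 5 members were called at 6 h, 24 h and 72 h, as without it. Depth limits Aldh3a1, at 1 to 17 counts per library, Ahrr at 6 h (10 to 16) and 24 h (10 to 30), and Cyp1a1 at 24 h, at 5 to 59.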
